A study of Homo sapiens with 33 samples.

Results

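Of the 60675 genes in the table, 10 are genes that mark absorptive enterocytes, the nutrient-absorbing cells of the intestinal lining, and they are described here in HT29 cells treated with herbal extracts. They were chosen by name, with earlier results of these data known, and were matched to the table by Ensembl identifier. The structural genes are KRT20 and VIL1, the transcription factor genes CDX1 and CDX2, the cadherin gene CDH17, the peptidase genes ANPEP and DPP4, and the carcinoembryonic antigen family genes CEACAM5, CEACAM6 and CEACAM1. All 10 passed the filter on low counts, which 17432 genes passed in all. HT29 is an established human colorectal adenocarcinoma line, and RNA was sequenced after 24 h of treatment. The treated groups received 70% ethanol extracts of 4 formulas (Sagunja-tang, Samul-tang, Palmul-tang, Sibjeondaebo-tang) at 20, 100 or 500 µg/mL, called the low, medium and high dose. There were 2 libraries per dose of Sagunja-tang and of Samul-tang, 3 per dose of Palmul-tang and of Sibjeondaebo-tang, and 3 of vehicle. The vehicle is 0.1% DMSO in the sample labels but 2% DMSO in the series description, and the sources do not settle which was used. All groups share this 1 tumour line and the culture time. As background, Palmul-tang joins the herbs of Sagunja-tang and Samul-tang, and Sibjeondaebo-tang adds further herbs to Palmul-tang.

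Enterocytes arise when progenitor cells leave the base of the crypt, stop dividing and build a brush border of microvilli on their free surface. The transcription factors CDX1 and CDX2 specify intestinal identity and act together with factors of the HNF4 family on brush border and transport genes. HT29 cells grow as largely undifferentiated cells in glucose-rich medium and can be brought to form enterocyte-like or mucus-secreting cells under other conditions.

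Total counts, in units of 1e6, were between 28.6 and 49.1 in extract libraries and between 31.1 and 35.6 in vehicle libraries. Values are counts scaled to library size (CPM) after normalization between libraries, and fold changes are on the log2 scale with their standard error. A gene was called when its adjusted p over all 17432 genes was under 0.05 in edgeR's quasi-likelihood test. Epithelial genes were high in every library, with KRT8 between 5956 and 7248 CPM and EPCAM between 527 and 674 CPM, while the leukocyte gene PTPRC had at most 3 counts and the T cell gene CD3E was at 0 in 29 of 33 libraries. Whether replicates were separate cultures is not stated, so a p-value reflects no more than the variation among these libraries, which could be technical. Titles place all 33 libraries in 1 batch, but sample codes begin in 3 ways without a stated meaning, for vehicle, for Samul-tang with Sagunja-tang, and for Sibjeondaebo-tang with Palmul-tang. Where a comparison crosses these codes, as every one with vehicle does, the treatment and the difference in codes cannot be told apart. The share of counts from mitochondrial genes was 5.71 to 8.83% in extract libraries and 8.69 to 11.39% in vehicle libraries, and its part in the comparisons with vehicle was not tested. The high-dose Sagunja-tang replicates differed from each other more than any other replicate pair, with longer genes lower in replicate 2 (Spearman -0.248 across genes). Calls that change when either of them is left out are given beside the result.

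In vehicle cells the 10 genes spanned a wide range of levels, compared here as CPM per kb of exon length. This length merges all annotated exons of a gene, so the order depends on the annotation. KRT20, an intermediate filament keratin of mature enterocytes and goblet cells, stood first at 164 ± 11.6 CPM per kb (SD, n = 3). CEACAM1, a cell adhesion receptor, followed at 33.1 ± 5.45 CPM per kb. VIL1, the gene of villin, which bundles and severs actin filaments in microvilli, had 24.8 ± 0.270 CPM per kb. CEACAM6 had 14.8 ± 0.907, DPP4 had 8.52 ± 0.383 and CEACAM5 had 2.49 ± 0.548 CPM per kb. CDX2, at 1.27 to 1.53 CPM per kb over the 3 libraries, and CDH17, at 1.23 to 1.38, were the only neighbours in this order whose ranges overlapped. CDX1 had 0.593 ± 0.163 CPM per kb. ANPEP, the gene of the brush border aminopeptidase N, had 0.0556 ± 0.00293 CPM per kb, from 9, 9 and 8 counts, and 1 to 17 counts per library over all 33 libraries.

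On hg38, with GENCODE 29 annotation, KRT20 (ENSG00000171431) lies on the minus strand of chromosome 17 at 40875941 to 40885227, and VIL1 on the plus strand of chromosome 2 at 218419092 to 218453295. CDX1 is on chromosome 5 at 150166795 to 150184558 (plus strand) and CDX2 on chromosome 13 at 27962137 to 27971139 (minus strand). CDH17 is on chromosome 8 at 94127171 to 94217303, ANPEP on chromosome 15 at 89784889 to 89815401 and DPP4 on chromosome 2 at 161992241 to 162074542, all on the minus strand. On chromosome 19 CEACAM5 spans 41708585 to 41729798 and CEACAM6 spans 41750977 to 41772208, both on the plus strand, and CEACAM1 spans 42507304 to 42561234 on the minus strand. The deposited counts are per gene, so transcript isoforms were not separated.

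KRT20 and VIL1, both structural genes of the mature enterocyte, moved in opposite directions with dose. At the high dose KRT20 had 376, 381 and 368 CPM with Sibjeondaebo-tang, 354, 349.7 and 345 CPM with Palmul-tang, 364 and 355 CPM with Samul-tang and 329 and 316 CPM with Sagunja-tang, against 309.9, 319 and 278 CPM in vehicle cells. Every high-dose library of Sibjeondaebo-tang, Palmul-tang and Samul-tang lay above every vehicle library, while the Sagunja-tang libraries overlapped with vehicle. The rise over vehicle was 0.31 ± 0.05 for Sibjeondaebo-tang (adjusted p = 8.03e-06), 0.25 ± 0.05 for Samul-tang (adjusted p = 0.000716) and 0.21 ± 0.05 for Palmul-tang (adjusted p = 0.00118). For Sagunja-tang the difference was 0.09 ± 0.05 (95% interval -0.02 to 0.20, adjusted p = 0.18) and was not called. At the low and medium doses KRT20 was not called against vehicle, with 283 to 317 CPM over the 10 low-dose libraries and 269 to 309 CPM over the 10 medium-dose libraries. With medium-dose Sagunja-tang it was called lower without vehicle replicate 3 (-0.19, adjusted p = 0.0191) and by DESeq2 on all libraries (-0.135, adjusted p = 0.0498). In RNA from whole cultures, more cells with a gene and more of its RNA per cell cannot be told apart, here or for the genes that follow.

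**Figure D1:**
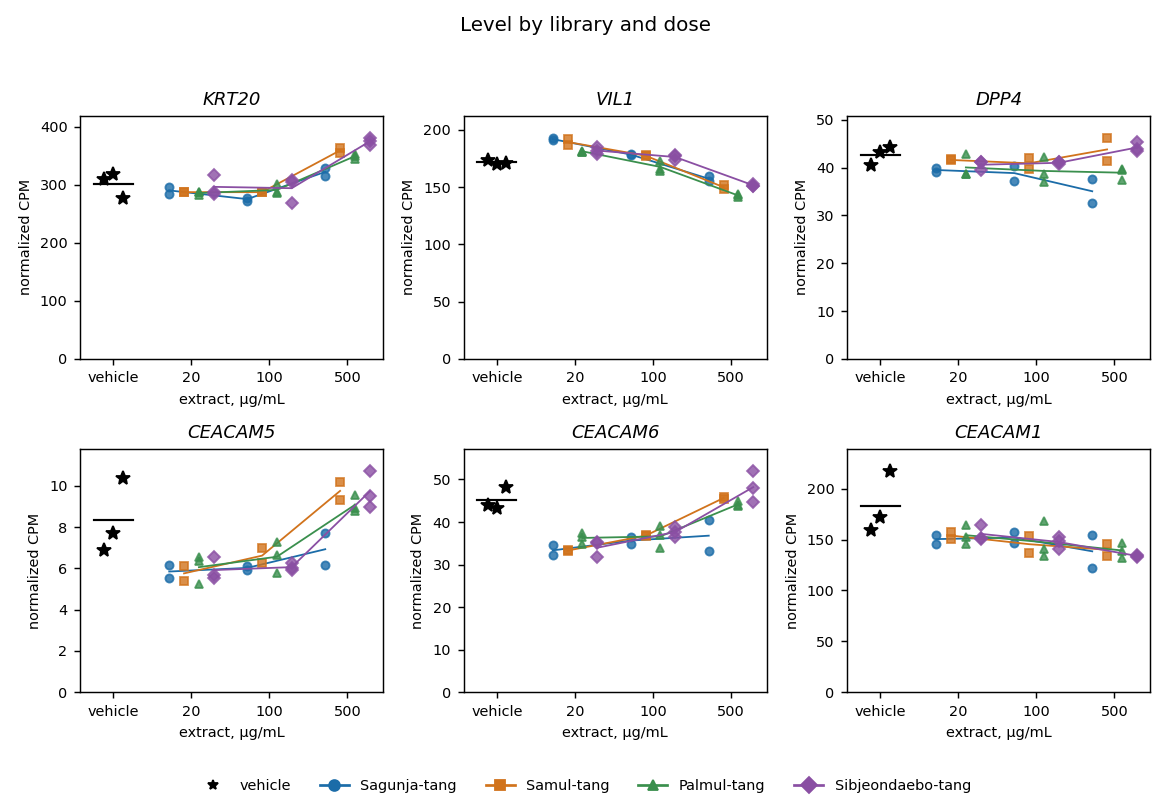
Normalized CPM of 6 genes in each of the 33 libraries, with vehicle at the left of each panel and the extract doses of 20, 100 and 500 µg/mL after it; symbols are libraries, lines join group means and the black bar is the vehicle mean. KRT20 reaches 316 to 381 CPM at 500 µg/mL and VIL1 falls to 141 to 159.7 CPM there, while CEACAM5 and CEACAM6 are lowest at 20 µg/mL.

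The dose comparisons within an extract use no vehicle library and stay within 1 kind of sample code. KRT20 was higher at the high than at the low dose by 0.34 ± 0.05 with Sibjeondaebo-tang (adjusted p = 3.13e-06), 0.32 ± 0.06 with Samul-tang (adjusted p = 0.000413) and 0.29 ± 0.05 with Palmul-tang (adjusted p = 7.5e-05). With Sagunja-tang the difference was 0.15 ± 0.06 (adjusted p = 0.106). Against the medium dose, a comparison added after the values were seen, the high dose was above in all 4 extracts, by 0.35 ± 0.05 with Sibjeondaebo-tang, 0.26 ± 0.05 with Palmul-tang, 0.32 ± 0.06 with Samul-tang and 0.23 ± 0.06 with Sagunja-tang (adjusted p = 0.02 for the last). The Sagunja-tang call was lost without replicate 2 of the high dose (0.20, adjusted p = 0.375), without either medium-dose replicate (adjusted p = 0.141 and 0.0716) and with only the groups compared in the fit (adjusted p = 0.598). Between the medium and low doses no extract showed a called change of KRT20.

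VIL1 was above vehicle at the low dose and below it at the high dose. The high-dose libraries held 151, 151 and 153 CPM with Sibjeondaebo-tang, 143, 144 and 141 CPM with Palmul-tang, 152 and 148 CPM with Samul-tang and 155 and 159.7 CPM with Sagunja-tang, against 174, 169.9 and 171 CPM in vehicle cells. All 10 high-dose libraries were thus below all 3 vehicle libraries. The differences from vehicle were -0.18 ± 0.03 for Sibjeondaebo-tang (adjusted p = 5.1e-06), -0.27 ± 0.03 for Palmul-tang (adjusted p = 1.7e-08), -0.19 ± 0.03 for Samul-tang (adjusted p = 2.15e-05) and -0.12 ± 0.03 for Sagunja-tang (adjusted p = 0.00134). The Sagunja-tang fall was not called with only the groups compared in the fit (adjusted p = 0.221) or with no filter on low counts (adjusted p = 0.0995).

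At the low dose VIL1 had 179 to 193 CPM over 10 libraries, all of them above vehicle. It was called higher with Sagunja-tang (0.16 ± 0.03, adjusted p = 0.000385), Samul-tang (0.15 ± 0.03, adjusted p = 0.00129), Sibjeondaebo-tang (0.09 ± 0.03, adjusted p = 0.0182) and Palmul-tang (0.08 ± 0.03, adjusted p = 0.0285). The last of these calls is weak: leaving out any 1 of the Palmul-tang low-dose libraries, or vehicle replicate 2 or 3, gave adjusted p between 0.0534 and 0.0955. The Sibjeondaebo-tang call was likewise lost without vehicle replicate 2 or 3 and without low-dose replicate 3, at adjusted p between 0.0563 and 0.0973. Both were lost with no filter on low counts (adjusted p = 0.242 for Palmul-tang and 0.186 for Sibjeondaebo-tang) and with only the groups compared in the fit (adjusted p = 0.157 and 0.113).

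At the high dose VIL1 was lower than at the low dose in each extract, by -0.26 ± 0.03 with Sibjeondaebo-tang (adjusted p = 1.31e-08), -0.35 ± 0.03 with Palmul-tang (adjusted p = 1.89e-10), -0.34 ± 0.03 with Samul-tang (adjusted p = 2.19e-08) and -0.29 ± 0.03 with Sagunja-tang (adjusted p = 2.68e-06). Only the Sagunja-tang call was lost under any alternative, with only the groups compared in the fit (adjusted p = 0.575). The medians over the 10 libraries at each dose were 184, 177 and 151 CPM at 20, 100 and 500 µg/mL. RSEM divided some reads of VIL1 between genes, since its deposited count was not a whole number in 31 of 33 libraries.

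CDX2, the homeobox factor that maintains intestinal identity in adult epithelium, was below vehicle with every extract at the high dose. It had 4.21, 4.41 and 3.64 CPM with Sibjeondaebo-tang, 3.61, 4.37 and 4.03 CPM with Palmul-tang, 3.71 and 3.98 CPM with Samul-tang and 4.35 and 3.96 CPM with Sagunja-tang, against 5.22, 6.32 and 6.21 CPM in vehicle cells. All high-dose libraries were below all vehicle libraries. The fall was -0.62 ± 0.12 with Samul-tang (adjusted p = 0.000335), -0.57 ± 0.11 with Palmul-tang (adjusted p = 0.000184), -0.53 ± 0.11 with Sibjeondaebo-tang (adjusted p = 0.000216) and -0.51 ± 0.12 with Sagunja-tang (adjusted p = 0.00145), and these 4 calls held under every alternative run. The differences at the low dose were -0.49 ± 0.12 with Samul-tang (adjusted p = 0.00583) and -0.38 ± 0.12 with Sagunja-tang (adjusted p = 0.0207), both called, and -0.26 ± 0.10 with Sibjeondaebo-tang (adjusted p = 0.069) and -0.24 ± 0.10 with Palmul-tang (adjusted p = 0.0973), not called. Without vehicle replicate 1 the last 2 were called as well (adjusted p = 0.0256 and 0.0371), and the Palmul-tang one also without its replicate 3 (adjusted p = 0.043). The Sagunja-tang low-dose call was lost without vehicle replicate 2 or 3 and without either of its own replicates (adjusted p between 0.0722 and 0.144). The Samul-tang one was lost without its replicate 3 (adjusted p = 0.0768).

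**Figure D2:**
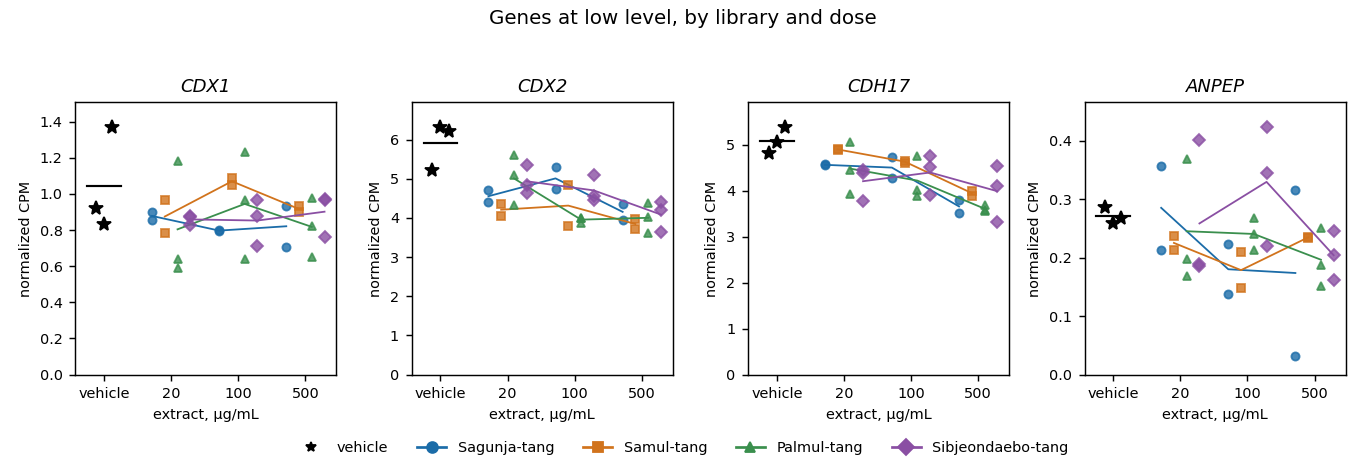
Normalized CPM of CDX1, CDX2, CDH17 and ANPEP in each of the 33 libraries, laid out by vehicle and then by dose in µg/mL; symbols are libraries, lines join group means and the black bar is the vehicle mean. CDX2 and CDH17 lie at 3.61 to 4.41 and 3.32 to 4.54 CPM at 500 µg/mL, under every vehicle library, and CDX1 and ANPEP were not called in any comparison with all libraries kept.

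At the medium dose CDX2 was called lower with Palmul-tang (-0.58 ± 0.11, adjusted p = 0.000657), Samul-tang (-0.45 ± 0.12, adjusted p = 0.0078) and Sibjeondaebo-tang (-0.33 ± 0.10, adjusted p = 0.0191), and was -0.24 ± 0.12 with Sagunja-tang (adjusted p = 0.155). Without Samul-tang medium replicate 2 the Samul-tang value was -0.29 (adjusted p = 0.229). The Sibjeondaebo-tang call was lost without vehicle replicate 2 or 3 or without medium-dose replicate 2 or 3 (adjusted p between 0.0578 and 0.0958). Within extracts the high and low doses differed by a called amount in Palmul-tang only (-0.32 ± 0.11, adjusted p = 0.0393), and 6 of 11 alternatives put that value above the threshold, up to an adjusted p of 0.214. With Sibjeondaebo-tang that difference was called without high-dose replicate 2 (-0.33, adjusted p = 0.0421). The RefSeq promoter of CDX2 is printed because it is the only promoter of these genes with a match to the CDX motif CNATAAA. It runs over chr13:27969266-27969565 on the minus strand of GRCh38.p14, and the capitals mark that match, 181 bases before the start site.
CDX2: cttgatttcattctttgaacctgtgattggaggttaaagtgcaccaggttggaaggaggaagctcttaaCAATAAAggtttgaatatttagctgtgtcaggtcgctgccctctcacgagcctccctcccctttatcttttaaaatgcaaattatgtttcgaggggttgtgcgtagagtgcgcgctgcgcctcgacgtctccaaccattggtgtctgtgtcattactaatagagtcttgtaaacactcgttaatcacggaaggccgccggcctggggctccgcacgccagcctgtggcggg

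Promoter windows of 300 bases, from 250 bases before to 50 after the annotated start, were found in the RefSeq table for 7 of the 10 genes, in 8 promoters. VIL1, CDX1 and CDH17 had no entry. On both strands CNATAAA was found in 1 of the 8 and in 9.73% of 35116 promoters in the table. The HNF4 motif CAAAGNNCA was found in 0 of the 8 and in 5.28% of all. The motif of HNF1 factors was not searched over all promoters. Its letters GTTAAT, read on either strand, occur in the windows of CDX2 and KRT20 and in a window of ANPEP. How common these letters are in other promoters was not counted. These matches describe the letters in the windows only.

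CDX1, the paralogue of CDX2 expressed mainly in the crypt, was not called in any comparison. It had between 21 and 48 counts per library, and at the high dose 0.973, 0.969 and 0.763 CPM with Sibjeondaebo-tang, 0.820, 0.653 and 0.980 CPM with Palmul-tang, 0.934 and 0.899 CPM with Samul-tang and 0.934 and 0.708 CPM with Sagunja-tang, against 0.923, 0.833 and 1.37 CPM in vehicle cells. Each of these groups overlapped with vehicle. The 95% intervals of the high-dose differences ran from -0.69 to 0.30 with Sibjeondaebo-tang, -0.82 to 0.17 with Palmul-tang, -0.72 to 0.37 with Samul-tang and -0.92 to 0.23 with Sagunja-tang. A change of the size seen for CDX2 could therefore not be told from no change at this depth.

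CDH17, an intestinal cadherin of the lateral membrane that also acts as a peptide transporter, was lower than in vehicle with every extract at the high dose. It had 4.10, 4.54 and 3.32 CPM with Sibjeondaebo-tang, 3.56, 3.69 and 3.57 CPM with Palmul-tang, 4.00 and 3.89 CPM with Samul-tang and 3.51 and 3.80 CPM with Sagunja-tang, against 4.81, 5.06 and 5.38 CPM in vehicle cells. No high-dose library reached the lowest vehicle library. The fall was -0.49 ± 0.11 with Palmul-tang (adjusted p = 0.000776), -0.47 ± 0.12 with Sagunja-tang (adjusted p = 0.00341), -0.36 ± 0.12 with Samul-tang (adjusted p = 0.0212) and -0.35 ± 0.11 with Sibjeondaebo-tang (adjusted p = 0.00951). The call was lost for Sibjeondaebo-tang without high-dose replicate 3 (-0.24, adjusted p = 0.0923), and for Sagunja-tang without high-dose replicate 2 (-0.42, adjusted p = 0.0617) or with only the groups compared (adjusted p = 0.0511). For Samul-tang it was lost without vehicle replicate 3 (adjusted p = 0.0773) or without either high-dose replicate (adjusted p = 0.0906 and 0.114). At the low and medium doses CDH17 was not called with any extract, except with medium-dose Palmul-tang when its replicate 1 was left out (-0.36, adjusted p = 0.0425), its differences from vehicle lying between -0.27 ± 0.10 with low-dose Sibjeondaebo-tang and -0.05 ± 0.11 with low-dose Samul-tang. Between high and low dose CDH17 was called lower with Palmul-tang (-0.31 ± 0.11, adjusted p = 0.0456), a call that 8 of 11 alternatives put above the threshold, up to an adjusted p of 0.26.

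Of the peptidase genes, DPP4 was called against vehicle with high-dose Sagunja-tang only and ANPEP in no comparison with all libraries kept. The ANPEP high-dose differences from vehicle had 95% intervals as wide as -1.62 to 0.53, for Sagunja-tang. The lowest value, 0.0322 CPM in high-dose Sagunja-tang replicate 2, was a single count, and replicate 3 of the same group had 0.315 CPM. With replicate 3 left out, ANPEP was called lower than vehicle there (-2.95, adjusted p = 0.00992), lower at the high than at the low dose of Sagunja-tang (-3.03, adjusted p = 0.015) and higher with Samul-tang than with Sagunja-tang at the high dose (2.75, adjusted p = 0.0375), each resting on that single count. DPP4, the dipeptidyl peptidase of the brush border that cleaves incretin hormones, had 32.5 and 37.6 CPM with high-dose Sagunja-tang, against 40.5, 43.2 and 44.3 CPM in vehicle cells. Both Sagunja-tang libraries were below vehicle, and the fall was -0.28 ± 0.06 (adjusted p = 0.000792), but it was not called without replicate 2 of this group (-0.18, adjusted p = 0.0765) or with only the groups compared (adjusted p = 0.0614). Without replicate 3, DPP4 was also called lower at the high than at the medium dose of Sagunja-tang (-0.255, adjusted p = 0.0158).

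With the other extracts at the high dose DPP4 had 43.9, 43.4 and 45.3 CPM for Sibjeondaebo-tang, 39.8, 37.5 and 39.5 CPM for Palmul-tang and 41.4 and 46.2 CPM for Samul-tang. Its differences from vehicle were 0.05 ± 0.05 (95% interval -0.06 to 0.16), -0.13 ± 0.05 (-0.24 to -0.02, adjusted p = 0.065) and 0.04 ± 0.06 (-0.08 to 0.16) in that order of extracts. None of the 3 was called, and the Palmul-tang difference passed the threshold without vehicle replicate 1 (-0.17, adjusted p = 0.034) and with a term for replicate number (adjusted p = 0.0165). At the low and medium doses DPP4 lay between 37.0 and 42.8 CPM in the 20 libraries and was not called. At the medium dose a term for replicate number put it past the threshold with Palmul-tang (-0.12, adjusted p = 0.0445) and Sagunja-tang (-0.15, adjusted p = 0.0329), and so did leaving out replicate 3 with Palmul-tang (-0.17, adjusted p = 0.0348).

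CEACAM5 and CEACAM6 encode glycoproteins anchored to the outer membrane of colon epithelial cells and shed by tumours, CEACAM5 being the carcinoembryonic antigen itself. The 2 genes lie next to each other on chromosome 19, with 21.2 kb between them, and both had their lowest medians at the low dose. CEACAM6 had 35.0, 35.2 and 31.7 CPM with low-dose Sibjeondaebo-tang, 37.5, 34.8 and 36.5 CPM with Palmul-tang, 33.2 and 33.4 CPM with Samul-tang and 32.2 and 34.5 CPM with Sagunja-tang, against 43.9, 43.3 and 48.3 CPM in vehicle cells. All 10 low-dose libraries were below vehicle. The fall was -0.44 ± 0.07 with Samul-tang (adjusted p = 0.000184) and with Sagunja-tang (adjusted p = 0.000148), -0.41 ± 0.06 with Sibjeondaebo-tang (adjusted p = 6.43e-05) and -0.32 ± 0.06 with Palmul-tang (adjusted p = 0.000998). At the medium dose it was still called lower in all 4 extracts, by -0.34 ± 0.07 with Sagunja-tang, -0.30 ± 0.06 with Palmul-tang, -0.29 ± 0.07 with Samul-tang and -0.26 ± 0.06 with Sibjeondaebo-tang. Of these, the Sagunja-tang and Samul-tang calls were lost without replicate 2 of the medium dose (adjusted p = 0.0611 and 0.0599).

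At the high dose CEACAM6 had 51.9, 48.0 and 44.7 CPM with Sibjeondaebo-tang, 44.0, 44.9 and 43.7 CPM with Palmul-tang and 45.4 and 45.9 CPM with Samul-tang, within or near the vehicle range. The differences from vehicle were 0.10 ± 0.06 (95% interval -0.03 to 0.22), -0.03 ± 0.06 (-0.16 to 0.09) and 0.02 ± 0.07 (-0.12 to 0.16) for these 3 extracts, and none was called. With Sagunja-tang it had 33.2 and 40.4 CPM, below vehicle by -0.29 ± 0.07 (adjusted p = 0.00186), a call lost without replicate 2 (-0.16, adjusted p = 0.163) or with only the groups compared (adjusted p = 0.0832). From low to high dose CEACAM6 rose by 0.51 ± 0.06 with Sibjeondaebo-tang (adjusted p = 4.24e-07), 0.46 ± 0.08 with Samul-tang (adjusted p = 0.000173) and 0.29 ± 0.06 with Palmul-tang (adjusted p = 0.00176). With Sagunja-tang the difference was 0.15 ± 0.08 (95% interval -0.01 to 0.30, adjusted p = 0.246).

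CEACAM5 followed the same order of doses at a lower level. The high-dose libraries held 10.7, 9.53 and 8.96 CPM with Sibjeondaebo-tang, 8.91, 9.57 and 8.76 CPM with Palmul-tang, 9.31 and 10.2 CPM with Samul-tang and 6.15 and 7.71 CPM with Sagunja-tang, and the low-dose libraries 5.26 to 6.56 CPM over all extracts. Every high-dose library of the first 3 extracts was above every low-dose library. The rise from low to high dose was 0.76 ± 0.14 with Samul-tang (adjusted p = 0.000606), 0.72 ± 0.11 with Sibjeondaebo-tang (adjusted p = 2.25e-05) and 0.58 ± 0.12 with Palmul-tang (adjusted p = 0.000748), and with Sagunja-tang the difference was 0.25 ± 0.15 (95% interval -0.05 to 0.56, adjusted p = 0.308). All 9 of the low-to-high rises of KRT20, CEACAM5 and CEACAM6 with Samul-tang, Palmul-tang and Sibjeondaebo-tang held under every alternative run.

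Against vehicle, CEACAM5 depended on 1 control library, since the vehicle values were 6.91, 7.73 and 10.4 CPM. It was called lower at the low dose in all 4 extracts, by -0.53 ± 0.13 with Samul-tang, -0.51 ± 0.13 with Sagunja-tang, -0.49 ± 0.12 with Sibjeondaebo-tang and -0.46 ± 0.12 with Palmul-tang. Without vehicle replicate 3, the 10.4 CPM library, these became -0.35, -0.33, -0.31 and -0.28, with adjusted p between 0.0726 and 0.115. The Samul-tang, Sagunja-tang and Palmul-tang calls were also lost without replicate 2 of the low dose (adjusted p = 0.12, 0.119 and 0.0775). At the medium dose it was called lower with Sagunja-tang (-0.47 ± 0.13, adjusted p = 0.0184), Sibjeondaebo-tang (-0.46 ± 0.12, adjusted p = 0.00603) and Palmul-tang (-0.33 ± 0.12, adjusted p = 0.0485), and these calls were lost without the same library too (adjusted p = 0.155, 0.101 and 0.436). The Sagunja-tang one was lost without either of its own libraries (adjusted p = 0.123 and 0.0953), and the Palmul-tang one without vehicle replicate 2 (adjusted p = 0.0536) or without medium-dose replicate 1 or 2 (adjusted p = 0.102 and 0.215). With medium-dose Samul-tang it was called lower without vehicle replicate 1 (-0.45, adjusted p = 0.0174) and with no filter on low counts (adjusted p = 0.0264). At the high dose no difference from vehicle was called, and without vehicle replicate 3 CEACAM5 was called higher with Samul-tang (0.42, adjusted p = 0.0129), Sibjeondaebo-tang (0.41, adjusted p = 0.0047; 0.24 and 0.0387 with no filter and all libraries) and Palmul-tang (0.31, adjusted p = 0.0409). With Sagunja-tang it was called lower without vehicle replicate 1 (-0.37, adjusted p = 0.0319) or without its own replicate 3 (-0.44, adjusted p = 0.0456). RSEM divided reads of CEACAM5 between genes in 32 of 33 libraries, while the deposited counts of CEACAM6 and CEACAM1 were whole in all 33.

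The promoters of the 3 CEACAM genes are shown together because CEACAM5 and CEACAM6 moved together and CEACAM1 did not. The RefSeq windows run over chr19:41708376-41708675 (CEACAM5, plus strand), chr19:41755280-41755579 (CEACAM6, plus strand) and chr19:42528432-42528731 (CEACAM1, minus strand) of GRCh38.p14. The capitals mark the longest run shared by CEACAM5 and CEACAM6, which is 21 bases.
CEACAM5: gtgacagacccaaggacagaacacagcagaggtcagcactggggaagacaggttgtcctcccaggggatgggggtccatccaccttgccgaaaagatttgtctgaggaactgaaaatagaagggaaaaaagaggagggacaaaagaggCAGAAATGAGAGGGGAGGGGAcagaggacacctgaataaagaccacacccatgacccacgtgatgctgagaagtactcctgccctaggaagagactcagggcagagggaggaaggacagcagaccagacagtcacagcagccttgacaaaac
CEACAM6: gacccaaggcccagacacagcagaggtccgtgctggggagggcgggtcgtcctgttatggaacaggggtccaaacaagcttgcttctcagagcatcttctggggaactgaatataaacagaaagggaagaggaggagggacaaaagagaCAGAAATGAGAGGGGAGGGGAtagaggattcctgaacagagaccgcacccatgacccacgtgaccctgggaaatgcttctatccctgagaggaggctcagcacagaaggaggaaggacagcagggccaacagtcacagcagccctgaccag
CEACAM1: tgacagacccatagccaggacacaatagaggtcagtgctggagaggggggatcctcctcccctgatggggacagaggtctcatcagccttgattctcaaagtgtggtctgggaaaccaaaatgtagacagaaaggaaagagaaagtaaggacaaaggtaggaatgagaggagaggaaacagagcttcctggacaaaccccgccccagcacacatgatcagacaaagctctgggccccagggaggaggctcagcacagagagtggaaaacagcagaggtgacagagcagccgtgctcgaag
In alignments of these windows 78.8% of aligned bases were identical between CEACAM5 and CEACAM6, 74.8% between CEACAM6 and CEACAM1 and 70.7% between CEACAM5 and CEACAM1. The longest run shared with CEACAM1 was 18 bases for CEACAM6 and 11 bases for CEACAM5. None of the 3 windows matched a CDX or HNF4 motif as searched here. The part of promoter likeness in how these genes moved was not tested.

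CEACAM1, an adhesion molecule with signalling tails that is also a binding partner of other CEACAM proteins, was lower than vehicle at the high dose in all 4 extracts. It had 133, 135 and 134 CPM with Sibjeondaebo-tang, 132, 139 and 147 CPM with Palmul-tang, 134 and 146 CPM with Samul-tang and 122 and 155 CPM with Sagunja-tang, against 159.7, 172 and 217 CPM in vehicle cells. All high-dose libraries were below all vehicle libraries, which were themselves spread widely. The fall was -0.45 ± 0.09 with Sibjeondaebo-tang (adjusted p = 0.000204), -0.40 ± 0.10 with Sagunja-tang (adjusted p = 0.00242), -0.39 ± 0.09 with Palmul-tang (adjusted p = 0.00114) and -0.39 ± 0.10 with Samul-tang (adjusted p = 0.00471). Without vehicle replicate 3, the 217 CPM library, the Samul-tang fall was -0.25 (adjusted p = 0.0555). The Samul-tang call was also lost without high-dose replicate 2 (adjusted p = 0.0894), and the Sagunja-tang one without its replicate 2 (-0.24, adjusted p = 0.16) or with only the groups compared (adjusted p = 0.0979). CEACAM1 was also called lower at the medium dose with Sibjeondaebo-tang, Palmul-tang and Samul-tang and at the low dose with Sagunja-tang, and each of these calls was lost without vehicle replicate 3 (adjusted p between 0.169 and 0.326). Without vehicle replicate 1 it was called lower at the low dose with Sibjeondaebo-tang, Palmul-tang and Samul-tang too (adjusted p = 0.0124, 0.0111 and 0.0206) and at the medium dose with Sagunja-tang (adjusted p = 0.0164). With all libraries and no filter on low counts these 4 were also called (adjusted p between 2.41e-05 and 0.000206). Within extracts its high and low doses differed by -0.21 ± 0.09 with Sibjeondaebo-tang (adjusted p = 0.0683) to -0.12 ± 0.11 with Sagunja-tang (adjusted p = 0.543), none of them called in the fit of all libraries. The Sibjeondaebo-tang fall was called with no filter (adjusted p = 5.8e-05), with only the groups compared (adjusted p = 0.000906) and with a term for replicate number (adjusted p = 0.0149), and the Palmul-tang fall with no filter (-0.155, adjusted p = 0.0162).

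**Figure D3:**
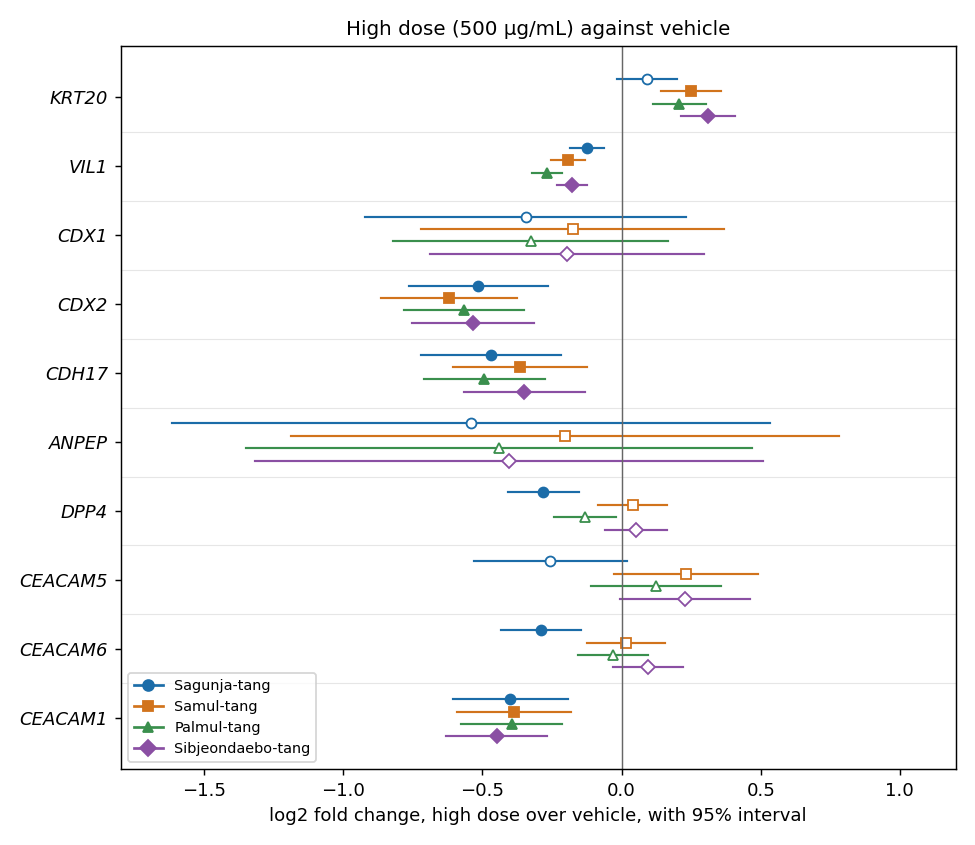
Log2 fold change of each of the 10 genes at 500 µg/mL over vehicle, with its 95% interval, for each extract; filled symbols are called at an adjusted p under 0.05 over all genes and open symbols are not. The KRT20 estimates are to the right of 0, with the Sagunja-tang interval crossing it, and CDX2, CDH17, VIL1 and CEACAM1 are to the left; the 4 comparisons share the same 3 vehicle libraries.

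Counted per comparison at the high dose, 6 of the 10 genes were lower than vehicle and 0 higher with Sagunja-tang, where 36.7% of all tested genes were called and 18% were lower. Of these 6, CDH17, DPP4, CEACAM6 and CEACAM1 depended on high-dose replicate 2, with falls of -0.42, -0.18, -0.16 and -0.24 without it. With only the groups compared in the fit, 1 gene was called in place of 6 for Sagunja-tang. With Samul-tang 1 was higher and 4 lower, against 27.5% of all genes called, 15% higher and 12.5% lower. With Palmul-tang 1 was higher and 4 lower, against 32.1% called, 17.3% higher and 14.8% lower. With Sibjeondaebo-tang 1 was higher and 4 lower, against 39.6% called, 20.5% higher and 19.1% lower. The median log2 difference of the 10 genes was -0.32, -0.18, -0.30 and -0.19 in that order of extracts, beside -0.01, -0.00, -0.01 and -0.02 over all tested genes. These 4 comparisons and those of the lower doses share the vehicle libraries and are not independent of each other.

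At the medium dose each gene called among the 10 was lower. There were 2 with Sagunja-tang, against 16.4% of all genes called and 8.05% lower, and 3 with Samul-tang, against 20.1% called and 9.27% lower. There were 4 with Palmul-tang, against 20% called and 9.63% lower, and 4 with Sibjeondaebo-tang, against 26% called and 12% lower. At the low dose 1 was higher and 4 lower with Sagunja-tang, where 21.9% of all genes were called, 11.1% higher and 10.7% lower. With Samul-tang 1 was higher and 3 lower, against 17.6% called, 8.89% higher and 8.71% lower. With Palmul-tang 1 was higher and 2 lower, against 20.3% called, 10.6% higher and 9.74% lower. With Sibjeondaebo-tang 1 was higher and 2 lower, against 22% called, 11.1% higher and 10.9% lower. The gene that was higher at the low dose was VIL1 in each extract, and the gene that was higher at the high dose was KRT20 in the 3 extracts that had one.

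Between high and low dose 1 of the 10 was called with Sagunja-tang, a fall, where 7.19% of all genes were called and 3.86% were lower. With Samul-tang 3 were higher and 1 lower, against 7.53% of all genes called, 4.1% higher and 3.43% lower. With Palmul-tang 3 were higher and 3 lower, against 14.4% called, 7.66% higher and 6.75% lower. With Sibjeondaebo-tang 3 were higher and 1 lower, against 29.9% called, 15.5% higher and 14.3% lower. The 3 genes that were higher were KRT20, CEACAM5 and CEACAM6 in each of these 3 extracts, and VIL1 was lower in all 4.

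Between high and medium dose, added after the values were seen, 1 was higher and 1 lower with Sagunja-tang, where 6.91% of all genes were called, 3.65% higher and 3.26% lower. The counts were 3 higher and 1 lower in each of the other extracts, against 14.3% called (7% higher, 7.31% lower) with Sibjeondaebo-tang, 6.96% (3.8% higher, 3.16% lower) with Palmul-tang and 2.38% (1.35% higher, 1.03% lower) with Samul-tang. The 3 rises there were again of KRT20, CEACAM5 and CEACAM6. The CEACAM5 and CEACAM6 calls with Samul-tang were lost on leaving out any 1 of the 4 libraries compared (adjusted p between 0.0737 and 0.267), and those with Palmul-tang without its medium-dose replicate 2 (adjusted p = 0.0753 and 0.0523). The VIL1 call with Sagunja-tang was lost without high-dose replicate 2 (adjusted p = 0.0633).

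Between medium and low dose edgeR called 0 of the 10 in each extract, with 1, 1, 2 and 1 at an unadjusted p under 0.05 for the extracts in the order Sagunja-tang, Samul-tang, Palmul-tang, Sibjeondaebo-tang. DESeq2 called 0, 0, 1 and 0 there, the 1 being VIL1, and of all genes edgeR called 0, 0.00574, 0.00574 and 0.0975%.

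**Figure D4:**
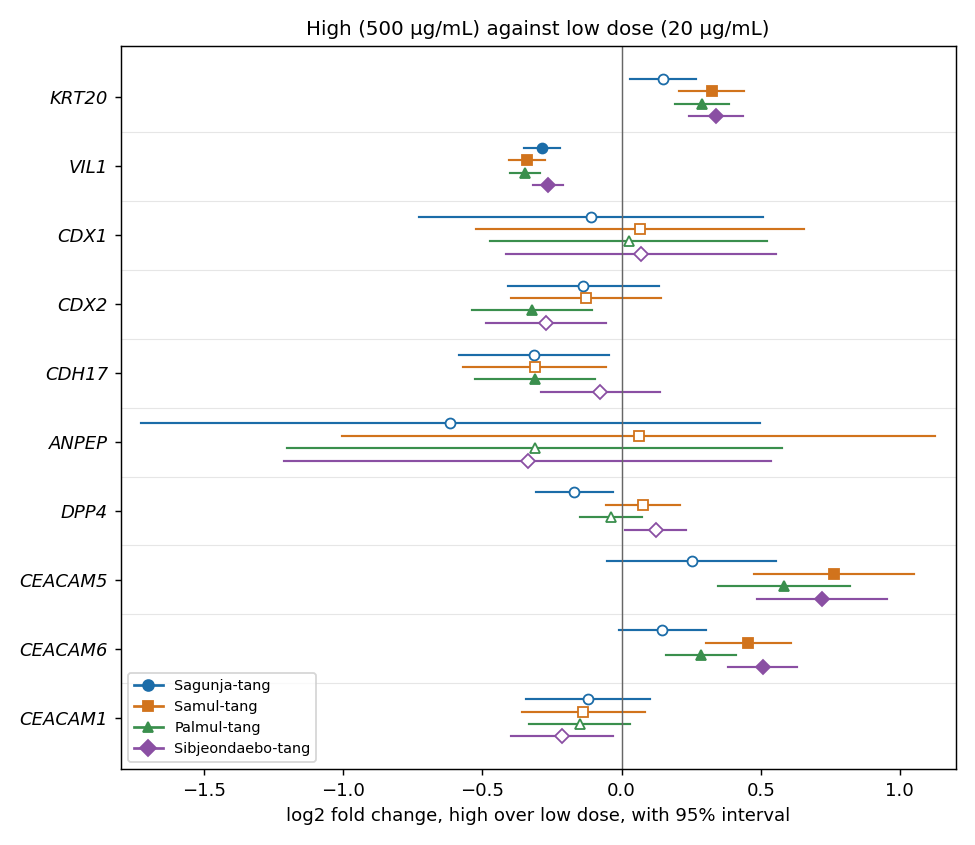
Log2 fold change of each of the 10 genes at 500 over 20 µg/mL within each extract, with its 95% interval; filled symbols are called at an adjusted p under 0.05 over all genes and open symbols are not. CEACAM5 and CEACAM6 are to the right of 0 by 0.29 to 0.76 in the 3 extracts other than Sagunja-tang, and VIL1 is to the left in all 4.

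The extracts were compared with each other at the high dose and in their difference between high and low dose, 7 comparisons in all. Samul-tang was above Sagunja-tang for 3 of the 10 genes and below for 0, where 5.47% of all genes were called and 3.55% were higher. DPP4 differed by 0.32 ± 0.07 (adjusted p = 0.00723), CEACAM6 by 0.31 ± 0.08 (adjusted p = 0.0198) and CEACAM5 by 0.49 ± 0.14 (adjusted p = 0.0415). All 3 calls were lost without Sagunja-tang high replicate 2 (0.22, 0.18 and 0.34, with adjusted p of 0.295, 0.564 and 0.599), without Samul-tang high replicate 3 (adjusted p between 0.111 and 0.225) and with only the groups compared (adjusted p = 0.685 for each). Without Samul-tang high replicate 2 the CEACAM5 and CEACAM6 calls were lost (adjusted p = 0.102 and 0.0955). For KRT20 the Samul-tang and Sagunja-tang values differed by 0.16 ± 0.06 (95% interval 0.04 to 0.28, adjusted p = 0.0955), which a term for replicate number put past the threshold (adjusted p = 0.0453).

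Palmul-tang and Sagunja-tang, like Palmul-tang and Samul-tang, differ in the start of their sample codes, which cannot be told apart from the extracts here. Palmul-tang was below Sagunja-tang for VIL1 (-0.14 ± 0.03, adjusted p = 0.0101), the only 1 of the 10 called there, where 1.82% of all genes were called and 0.706% were lower. This call was lost with no filter on low counts (adjusted p = 0.129) and with only the groups compared (adjusted p = 0.525). CEACAM6 was 0.26 ± 0.07 higher in Palmul-tang than in Sagunja-tang at an adjusted p of 0.0511 (95% interval 0.12 to 0.40). Without Sagunja-tang high replicate 3, CEACAM6 (0.41, adjusted p = 0.000553), DPP4 (0.26, adjusted p = 0.0123) and CEACAM5 (0.56, adjusted p = 0.0181) were called higher in Palmul-tang. Between Palmul-tang and Samul-tang edgeR called 0 of the 10, with 2 at an unadjusted p under 0.05 and 0 by DESeq2, and 0.138% of all genes. The 95% intervals of that difference were -0.15 to 0.06 for KRT20, -0.36 to 0.14 for CEACAM5 and -0.19 to 0.09 for CEACAM6. Between Sibjeondaebo-tang and Palmul-tang edgeR also called 0, with 4 at an unadjusted p under 0.05, against 3.87% of all genes. DESeq2 called 2 of them, VIL1 and DPP4, which by edgeR differed by 0.09 ± 0.03 (adjusted p = 0.0506) and 0.18 ± 0.05 (adjusted p = 0.0525).

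The difference between high and low dose did not differ by a called amount between Samul-tang and Sagunja-tang (0 of the 10, 4 at an unadjusted p under 0.05, 0 by DESeq2, 0.138% of all genes) or between Sibjeondaebo-tang and Palmul-tang (0 of the 10, 3 at an unadjusted p under 0.05, 0 by DESeq2, 1.45% of all genes). Between Sibjeondaebo-tang and Sagunja-tang, a comparison across sample codes that was added after the values were seen, edgeR also called 0, with 4 at an unadjusted p under 0.05, and DESeq2 called 2, against 1.95% of all genes by edgeR. Those 2 were CEACAM6 (0.36 ± 0.10, adjusted p = 0.0524 by edgeR and 0.0205 by DESeq2) and DPP4 (0.29 ± 0.09, adjusted p = 0.0714 and 0.0411). Without Sagunja-tang high replicate 3 both were called by edgeR (0.51 and 0.40, adjusted p = 0.00121 and 0.00429). KRT20, which rose by a called amount from low to high dose in 3 extracts and not in Sagunja-tang, differed in that rise by 0.19 ± 0.07 between Sibjeondaebo-tang and Sagunja-tang (adjusted p = 0.196) and by 0.17 ± 0.08 between Samul-tang and Sagunja-tang (adjusted p = 0.435). Without Sagunja-tang high replicate 3 the difference between Samul-tang and Sagunja-tang was called for DPP4, CEACAM5 and CEACAM6 (adjusted p = 0.0177, 0.0471 and 0.00585), so these tests turn on which of the 2 Sagunja-tang libraries is kept.

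Across the 13 group means the 10 genes fell into patterns that can be described by correlation, without a test, since the groups share their processing and only 1 of them is vehicle. CEACAM5 and CEACAM6 had a Pearson r of 0.961, and KRT20 and CEACAM5 of 0.907. VIL1 ran against them, with r of -0.879 to KRT20 and -0.881 to CEACAM5. CDX2 and CDH17 ran with CEACAM1, at 0.865 and 0.802, and CDX1 was near 0 with KRT20 (0.018). Among 10270 other genes the profile most like that of KRT20 was SDCBP2 (r = 0.987), followed by AKR1C1 (0.965), whose reads may be shared with its near-identical neighbours. For VIL1 these were LSS (0.979), which encodes lanosterol synthase, and ANXA13 (0.975), which encodes an intestinal annexin. For CEACAM5 they were DCBLD2 (0.984) and TNFRSF21 (0.977), for CEACAM6 KCTD9 (0.970) and MYC (0.969), and for CEACAM1 TLE4 (0.982) and LGALS8 (0.980). For CDX2 the leading genes were FYN (0.930) and NUMB (0.896), for CDH17 STAM2 (0.957) and INPP4B (0.945), and for DPP4 KIAA1549 (0.944) and SUCO (0.942). The leading r was lower for the genes of low counts, 0.870 for ANPEP with CNNM2 and 0.783 for CDX1 with TMEM268.

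Genes in other lists of the absorptive programme were also called in both directions. Of all tested genes, 39.6% were called against vehicle with high-dose Sibjeondaebo-tang, 32.1% with Palmul-tang, 27.5% with Samul-tang and 36.7% with Sagunja-tang. The list counts here and below are to be read beside these shares. Single list genes were not followed through the alternatives, so the stability of their calls was not tested. Of 11 tested transcription factor genes of absorptive cells, 2 were higher and 4 lower than vehicle with high-dose Sibjeondaebo-tang, 2 and 6 with Palmul-tang, 2 and 7 with Samul-tang and 2 and 6 with Sagunja-tang, with medians of -0.10, -0.15, -0.15 and -0.23. HNF4G, a nuclear receptor gene of the intestinal epithelium, was lower with each extract, by -0.22 ± 0.05 with Sagunja-tang. ESRRA, a nuclear receptor gene of mitochondrial metabolism, rose by 0.37 ± 0.09 with Palmul-tang to 0.51 ± 0.09 with Sibjeondaebo-tang. Between high and low dose ESRRA was called in no extract, and HNF4G was called lower with Palmul-tang (-0.19 ± 0.04) and Sibjeondaebo-tang (-0.14 ± 0.04).

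Of 24 tested brush border and adhesion genes, the counts at the high dose against vehicle were 4 higher and 8 lower with Sibjeondaebo-tang, 4 and 9 with Palmul-tang, 2 and 9 with Samul-tang and 5 and 10 with Sagunja-tang. MYO7B and USH1C, whose proteins belong to the complex that links microvilli, were like VIL1 lower at the high than at the low dose. MYO7B was lower at the high than at the low dose by -0.90 ± 0.09 with Sibjeondaebo-tang, -0.78 ± 0.10 with Palmul-tang, -0.50 ± 0.11 with Samul-tang and -0.67 ± 0.12 with Sagunja-tang. USH1C was lower by -0.25 ± 0.04, -0.22 ± 0.04, -0.20 ± 0.05 and -0.23 ± 0.05 in that order of extracts. The tight junction genes went both ways against vehicle: CLDN4 rose by 0.40 ± 0.06 with Samul-tang to 0.47 ± 0.06 with Sibjeondaebo-tang, and TJP1 fell by -0.31 ± 0.06 with Samul-tang to -0.49 ± 0.06 with Sagunja-tang.

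Brush border hydrolase genes were mostly under the filter, with 5 of 17 tested, and 1 of these, GGT1 (gamma-glutamyltransferase), was called lower than vehicle at the high dose in each extract, by -0.33 ± 0.09 with Sibjeondaebo-tang to -0.40 ± 0.10 with Samul-tang. Of 13 tested transport and lipid handling genes, 1 was higher and 2 lower than vehicle with high-dose Sibjeondaebo-tang, 1 and 3 with Palmul-tang, 1 and 1 with Samul-tang and 1 and 3 with Sagunja-tang. In each extract this was a smaller share called than over all tested genes. The gene that was higher in each was FABP1, the intestinal and liver fatty acid carrier. FABP1 rose over vehicle by 1.64 ± 0.14 with Samul-tang, 1.46 ± 0.14 with Palmul-tang, 1.39 ± 0.14 with Sibjeondaebo-tang and 1.03 ± 0.16 with Sagunja-tang. It was also higher at the high than at the low dose in each, by 0.55 ± 0.16 with Sagunja-tang to 1.08 ± 0.15 with Samul-tang. SLC5A1, the sodium-glucose transporter of the brush border, was lower than vehicle in each extract, by -0.24 ± 0.08 with Sagunja-tang to -0.42 ± 0.07 with Palmul-tang. It was also lower at the high than at the low dose by -0.39 ± 0.07 with Sibjeondaebo-tang, -0.55 ± 0.07 with Palmul-tang, -0.44 ± 0.08 with Samul-tang and -0.33 ± 0.08 with Sagunja-tang. SLC3A1, part of a brush border amino acid transporter, fell between these doses by -0.90 ± 0.17 with Sibjeondaebo-tang, -1.01 ± 0.17 with Palmul-tang and -0.90 ± 0.22 with Sagunja-tang, and was -0.39 ± 0.20 with Samul-tang (adjusted p = 0.293). Against vehicle SLC3A1 was called lower with the same 3 extracts, by -0.62 ± 0.18 with Palmul-tang to -0.69 ± 0.21 with Sagunja-tang.

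**Figure D5:**
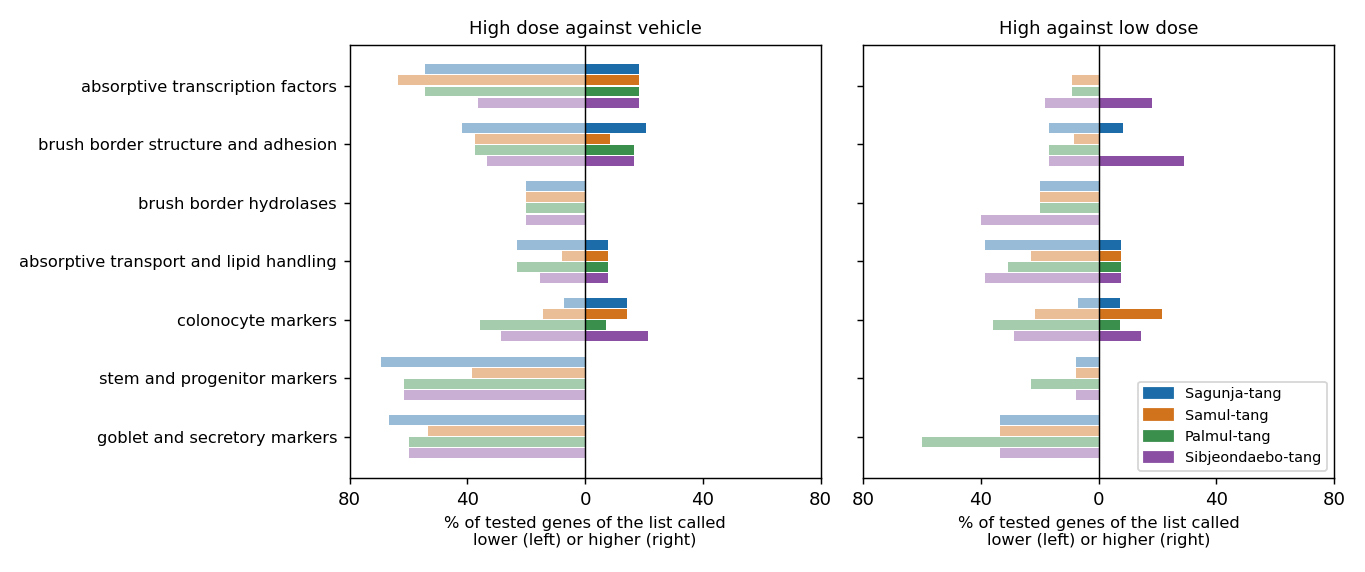
Share of the tested genes of each list called higher (to the right) or lower (to the left) at 500 µg/mL against vehicle and against 20 µg/mL, by extract. Stem, goblet and hydrolase genes have calls to the left only, and the other 4 absorptive lists have calls on both sides against vehicle.

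Colonocyte genes, 14 tested, also split, with 3 higher and 4 lower than vehicle with high-dose Sibjeondaebo-tang, 1 and 5 with Palmul-tang, 2 and 2 with Samul-tang and 2 and 1 with Sagunja-tang. AKR1B10, a reductase gene that is also a known target of the oxidative stress factor NRF2, was higher by 1.78 ± 0.05 with Samul-tang, 1.57 ± 0.05 with Sibjeondaebo-tang, 1.48 ± 0.05 with Palmul-tang and 0.94 ± 0.06 with Sagunja-tang. GUCA2A, the gene of the peptide guanylin, fell by -0.76 ± 0.28 with Samul-tang to -0.90 ± 0.29 with Sagunja-tang. The goblet and stem cell markers called against vehicle at the high dose were all lower, and those of the remaining epithelial fates were called in both directions. Of 15 tested goblet and secretory genes none was higher and 9 were lower with Sibjeondaebo-tang, 9 with Palmul-tang, 8 with Samul-tang and 10 with Sagunja-tang, with medians between -0.47 and -0.43 beside -0.02 to -0.00 over all genes. Their summed level was 506 to 674 CPM in extract libraries and 719.7 to 818 CPM in vehicle libraries. MUC2, the secreted mucin of goblet cells, fell by -0.81 ± 0.12 with Sibjeondaebo-tang, -0.80 ± 0.12 with Palmul-tang, -0.69 ± 0.13 with Samul-tang and -0.995 ± 0.137 with Sagunja-tang. Between high and low dose 5 of the 15 were called lower with Sibjeondaebo-tang, 9 with Palmul-tang, 5 with Samul-tang and 5 with Sagunja-tang, and none higher. Of all tested genes 14.3, 6.75, 3.43 and 3.86% were called lower there, in that order of extracts. REG4, a secreted lectin gene of secretory cells, was lower by -0.52 ± 0.07 with Sibjeondaebo-tang to -0.62 ± 0.07 with Palmul-tang, and CREB3L1, a transcription factor gene of secretory cells, by -0.43 ± 0.06 with Sibjeondaebo-tang to -0.58 ± 0.07 with Samul-tang. MUC2 was lower by -0.44 ± 0.12 with Sibjeondaebo-tang, -0.39 ± 0.12 with Palmul-tang and -0.60 ± 0.15 with Sagunja-tang, and was -0.37 ± 0.14 with Samul-tang (adjusted p = 0.114).

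Of 6 tested enteroendocrine, Paneth and tuft cell genes, 1 was higher and 2 lower than vehicle with high-dose Sibjeondaebo-tang, 0 and 1 with Palmul-tang, 0 and 0 with Samul-tang and 1 and 1 with Sagunja-tang. LYZ, the lysozyme gene of Paneth cells, rose by 0.19 ± 0.05 with Sibjeondaebo-tang and 0.27 ± 0.06 with Sagunja-tang, and was called in no extract between high and low dose. TRPM5, a channel gene of tuft cells, fell by -0.985 ± 0.198 with Sibjeondaebo-tang, -0.69 ± 0.19 with Palmul-tang and -0.57 ± 0.22 with Sagunja-tang. The summed level of this list was 1367 to 1821 CPM in extract libraries and 1371 to 1435 CPM in vehicle libraries, with overlap.

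Of 13 tested stem and progenitor genes none was higher than vehicle at the high dose, and 8 were lower with Sibjeondaebo-tang, 8 with Palmul-tang, 5 with Samul-tang and 9 with Sagunja-tang. Their summed level was 1783 to 2409 CPM in extract libraries and 2483 to 2774 CPM in vehicle libraries, without overlap. SOX9, a progenitor transcription factor gene, fell by -0.33 ± 0.05 with Sibjeondaebo-tang to -0.45 ± 0.06 with Samul-tang, and the WNT target AXIN2 by -0.30 ± 0.05 with Sibjeondaebo-tang to -0.37 ± 0.05 with Sagunja-tang. Neither SOX9, AXIN2, MYB nor RGMB was called between high and low dose in any extract. The part of these other cell fates in the results for the 10 genes was not tested. Fibroblast, endothelial and immune markers summed to 6.81 to 8.36 CPM in extract libraries and 6.78 to 8.15 CPM in vehicle libraries, and 0 of 4 tested genes of that list were called at the high dose against vehicle.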

How the data were processed

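RNA libraries were made with a directional kit and sequenced in paired ends, per the labels' protocols. The deposited table holds expected counts per Ensembl gene that the authors estimated with RSEM 1.3.3 after Trim Galore 0.6.5 and STAR 2.7.3a on hg38, per the submitters' processing notes; the annotation release is not given in the sources used here. Of 273 columns, 33 match the samples by code and 240 were not used. Estimated counts were rounded to whole numbers before testing.

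Testing used edgeR 4.0.16 under R 4.3.3 on the 17432 of 60675 genes kept by filterByExpr (minimum count 10). Libraries were scaled by TMM, every one of the 13 groups had its own coefficient, and all 33 libraries entered a single fit with 20 residual and 7.00 prior degrees of freedom. Each contrast was a two-sided quasi-likelihood F test with Benjamini-Hochberg adjustment over all genes tested and a threshold of 0.05. Standard errors are those the F statistic implies. Exon lengths came from GENCODE 29 and promoters from RefSeq (GRCh38.p14).

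The 10 genes and the 10 lists were chosen with earlier results of these data known. Comparisons of high with medium dose, of medium with low dose, and of the dose difference between Sibjeondaebo-tang and Sagunja-tang were added after the values were seen. All 10 genes are named. Some eligible genes of the lists are not reported here. From each list up to 4 genes were eligible, those called in at least 2 of the 4 high-dose contrasts with vehicle with the largest mean change, and for each of the 10 genes the 2 others with the most similar group means. The alternatives tried were DESeq2 1.42.0, edgeR with RLE size factors, no filter, only the groups compared, a term for replicate number, and the omission of single libraries, where a lone library was taken to vary as other groups do. The test was run on simulated counts in which each gene had the same spread in every group. That check does not cover the wider spread between the high-dose Sagunja-tang replicates.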

Additional observations from a re-analysis of the deposited data

Results flagged for a closer look

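The rule here flagged a gene whose high-dose libraries all lay above its low-dose libraries in some extract and all below in another. The separation of libraries given below therefore follows from the rule and adds no evidence. How often genes separate in this way by chance, with so few libraries per group, was not tested. DPP4 moved in opposite directions between high and low dose in 2 extracts. With Sibjeondaebo-tang it was higher at the high dose by 0.12 ± 0.05 (adjusted p = 0.0847), with every high-dose library (43.9, 43.4 and 45.3 CPM) above every low-dose library (39.5, 41.2 and 41.1 CPM). With Sagunja-tang the change was -0.17 ± 0.07 (adjusted p = 0.117), with both high-dose libraries (32.5 and 37.6 CPM) below both low-dose libraries (39.1 and 39.9 CPM). Neither change was called, though without Sagunja-tang high replicate 3 the Sagunja-tang change was (-0.28, adjusted p = 0.0088), and with only the groups compared the Sibjeondaebo-tang one was (adjusted p = 0.0312). With a term for replicate number both were called (-0.173, adjusted p = 0.0358 with Sagunja-tang, and 0.122, adjusted p = 0.0254 with Sibjeondaebo-tang). The difference between them was tested in edgeR as an interaction and was 0.29 ± 0.09 (adjusted p = 0.0714), not called, with values from 0.20 to 0.40 and adjusted p from 0.00429 to 0.328 over the alternatives.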

How the results depend on the processing

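Of 3310 values of the 10 genes under the alternatives, 3115 kept their side of the threshold, 119 lost and 76 gained a call, and 0 of the called values reversed. Of the 3115, 129 changed sign and were called under neither setting. With only the groups compared in the fit, fewer libraries estimate the spread, and fewer of the 10 genes were called against vehicle for high-dose Sagunja-tang (1 in place of 6), medium-dose Sagunja-tang (1), low-dose Sagunja-tang (2), medium-dose Samul-tang (1), medium-dose Palmul-tang (2) and low-dose Palmul-tang (1). There were then 0 between high and low and between high and medium dose of Sagunja-tang, 0 for Samul-tang and 0 for Palmul-tang against Sagunja-tang, and 1 for Sibjeondaebo-tang against Palmul-tang. Palmul-tang against Sagunja-tang gave 2 with no filter and 2 with DESeq2. Sibjeondaebo-tang against Palmul-tang gave 1 with no filter, 2 with RLE size factors and 2 with DESeq2. The dose difference of Sibjeondaebo-tang over Sagunja-tang gave 2 with no filter and 2 with DESeq2, and Palmul-tang medium against low dose 1 with DESeq2. The cause of these gains was not tested.

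Replicate numbers did not pair the samples: the lowest correlation of same-numbered deviations was between -0.067 and 0.088 over comparisons. With the replicate number as a block 16 of the values gained a call and 0 lost one. Those were of DPP4, CEACAM1, CEACAM6, VIL1 and KRT20, and the called genes numbered 4 for Sagunja-tang at the medium dose against vehicle, 2 between its high and low dose, 2 for Palmul-tang against Sagunja-tang, 2 for Sibjeondaebo-tang against Palmul-tang and 2 for the dose difference of Sibjeondaebo-tang over Sagunja-tang.

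Leaving out each library in turn gave these ranges of called genes. At the high dose against vehicle they were 2 to 8 with Sagunja-tang, 3 to 5 with Samul-tang, 5 to 6 with Palmul-tang, 4 to 6 with Sibjeondaebo-tang. At the medium dose they were 0 to 3 with Sagunja-tang, 0 to 4 with Samul-tang, 2 to 5 with Palmul-tang, 1 to 4 with Sibjeondaebo-tang. At the low dose they were 2 to 5 with Sagunja-tang, 3 to 5 with Samul-tang, 1 to 5 with Palmul-tang, 1 to 5 with Sibjeondaebo-tang. Between high and low dose they were 1 to 3 with Sagunja-tang, 4 to 4 with Samul-tang, 4 to 6 with Palmul-tang, 4 to 5 with Sibjeondaebo-tang. Between high and medium dose they were 0 to 3 with Sagunja-tang, 2 to 2 with Samul-tang, 2 to 4 with Palmul-tang, 4 to 4 with Sibjeondaebo-tang. Between medium and low dose they were 0 to 0 with Sagunja-tang, 0 to 0 with Samul-tang, 0 to 0 with Palmul-tang, 0 to 0 with Sibjeondaebo-tang. Between extracts at the high dose they were 0 to 4 for Samul-tang against Sagunja-tang, 0 to 0 for Palmul-tang against Samul-tang, 1 to 4 for Palmul-tang against Sagunja-tang, 0 to 0 for Sibjeondaebo-tang against Palmul-tang. For the dose difference they were 0 to 3 for Samul-tang over Sagunja-tang, 0 to 0 for Sibjeondaebo-tang over Palmul-tang, 0 to 2 for Sibjeondaebo-tang over Sagunja-tang. The depth limits CDX1 and ANPEP most, with at most 48 and 17 counts per library. The number of calls over all genes moved by more than 1.5 times with only the groups compared in 16 comparisons, with no filter in 11, with DESeq2 in 7 and with the block in 5. It did so in 8 without vehicle replicate 3, in 6 without Sagunja-tang high replicate 2, in 6 without its replicate 3 and in 6 without Samul-tang high replicate 2, so the shares of all genes given beside the 10 depend on these libraries too.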
